A study of Mus musculus with 6 samples.

Results

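The genes described here encode the proteins of Schwann cell myelin and the factors that switch them on. Of 8 genes chosen by name (Pmp22, Mbp, Mag, Prx, Egr2, Sox10, Pmp2 and Cnp), 6 had at least 1 listed transcript, out of 33676 genes with a listed transcript in all, and 26 of their transcripts are listed. Sox10 and Pmp2 are not analysed here, since none of their transcripts is among the listed ones. RNA came from the cochlear modiolus, the core of the cochlea in which the spiral ganglion lies, of male C57BL/6 mice that were 8 weeks old at treatment. The 3 control libraries came from saline-treated mice. The 3 degenerated libraries came from mice given 1 g/kg kanamycin under the skin and, 30 min later, 0.4 g/kg furosemide into the abdomen, and the study places them on day 30, when spiral ganglion neurons (SGNs) degenerate. The labels name the SGN as the cell type, but the whole modiolus was sequenced, and markers of glia, oligodendrocytes, blood and bone were present beside those of neurons. The labels do not say whether libraries of a group came from separate animals or pools, so p-values measure the spread between these libraries.

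Schwann cells wrap the axons of the auditory nerve in myelin, a stack of lipid-rich membrane held together by a small set of abundant proteins. The transcription factors Sox10 and Egr2 (Krox20) drive the genes of these proteins, and Schwann cells that lose contact with an axon are known to switch the programme off and to take up a repair state. Mbp, Mag and Cnp are also genes of oligodendrocytes, which myelinate the central end of the same nerve. Prx and Pmp22 encode proteins of peripheral myelin, and the part of other cells in their counts was not tested.

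The question was whether myelin genes differ between control and degenerated modioli. None of the 6 genes was called higher or lower, against 2.73% of the 14118 genes tested, where a call needs an unadjusted p under 0.01 and an absolute log2 fold change above 0.2 in edgeR's quasi-likelihood test. Control and degenerated libraries overlapped for all 6 genes, while they did not overlap for 17.7% of all genes tested. The log2 fold changes (degenerated over control) were positive for 4 genes and negative for 2, with a median of 0.10, beside -0.003 over all genes tested. The lowest unadjusted p among the 6 was 0.441, with an adjusted p of 0.827 (edgeR's quasi-likelihood test).

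The listed transcripts held 12480876 to 15549319 counts per library, and the common biological coefficient of variation was 0.488. edgeR's quasi-likelihood test left 0 of all genes below an adjusted p of 0.05 (1367 below an unadjusted p of 0.05), whereas DESeq2 gave 383 and edgeR's exact test 115. With 3 libraries a side, a two-sided exact permutation test cannot go below p = 0.1. Levels are given as CPM, the counts of a gene scaled by edgeR to a common library size. In bulk tissue, fewer cells of a type and less RNA per cell cannot be told apart.

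Promoter windows of 3 starts are shown because the counts of Pmp22 are divided between 2 starts and because Egr2 had the widest interval of the 6 genes. Each holds 250 bases before and 50 bases after a transcription start of RefSeq (GRCm38.p6), on the plus strand, 5′ to 3′. Capitals mark a match to the CArG box, the site of serum response factor. The first window, chr11:63131207-63131506, ends before the first base of Pmp22-201, whose start lies 55 bases after the window's start site. The second, chr11:63132319-63132618, has the start of Pmp22-203 at its start site, and the third, chr10:67537619-67537918, that of Egr2-201.
Pmp22-201 start: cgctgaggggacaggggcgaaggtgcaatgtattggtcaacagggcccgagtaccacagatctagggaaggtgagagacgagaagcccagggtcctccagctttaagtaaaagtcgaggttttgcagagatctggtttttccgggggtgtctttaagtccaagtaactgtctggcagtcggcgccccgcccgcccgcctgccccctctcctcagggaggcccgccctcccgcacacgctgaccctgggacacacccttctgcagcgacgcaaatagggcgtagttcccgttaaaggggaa
Pmp22-203 start: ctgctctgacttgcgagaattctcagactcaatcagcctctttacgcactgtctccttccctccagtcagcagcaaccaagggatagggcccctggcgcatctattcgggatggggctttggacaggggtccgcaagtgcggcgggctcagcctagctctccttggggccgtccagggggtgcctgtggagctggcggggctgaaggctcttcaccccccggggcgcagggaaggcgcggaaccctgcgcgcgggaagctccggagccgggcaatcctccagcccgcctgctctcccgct
Egr2-201 start: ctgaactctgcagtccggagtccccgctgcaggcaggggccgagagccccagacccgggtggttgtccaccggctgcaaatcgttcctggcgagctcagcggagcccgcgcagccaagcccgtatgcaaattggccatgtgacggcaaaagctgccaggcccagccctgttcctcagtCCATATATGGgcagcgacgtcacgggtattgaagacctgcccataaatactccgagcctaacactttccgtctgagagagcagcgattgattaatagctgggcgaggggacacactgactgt
The Egr2 window has 1 CArG box, which begins 72 bases before the start, and 1.63% of the 32851 promoter windows of this length hold one. Neither Pmp22 window holds a CArG box, a TATAAA (in 13.6% of all windows), the Egr motif GCGNGGGCG (5.55%) or the Sox motif ACAANG (41.2%), searched on both strands. The window of Pmp22-203 had a GC content of 66.3% and that of Pmp22-201 60%.

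Mbp encodes myelin basic protein, which glues the cytoplasmic faces of the membrane together (chr18:82475146-82585637, plus strand, 11 of 16 annotated transcripts listed). It stood at 814, 406 and 476 CPM in control replicates 1, 2 and 3 and at 869, 668 and 426 CPM in degenerated replicates 1, 2 and 3. Replicate 1 was the highest library in both groups, and degenerated replicate 3 lay between the lower 2 controls. The log2 fold change was 0.21 (SE 0.36, 95% interval -0.67 to 1.09, adjusted p = 0.880 in edgeR's quasi-likelihood test).

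Pmp22 encodes peripheral myelin protein 22, a membrane protein of compact myelin whose dosage underlies inherited neuropathies (chr11:63128982-63159547, plus strand, 3 of 5 transcripts listed). Its level was 390, 245 and 265 CPM in the control libraries and 352, 350 and 304 CPM in the degenerated ones. All 3 degenerated libraries lay above control replicates 2 and 3 and below control replicate 1. Its log2 fold change of 0.16 (SE 0.20) had a 95% interval of -0.32 to 0.64, which leaves out a change of 1 on the log2 scale in either direction.

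Prx encodes periaxin, a scaffold that ties the outer Schwann cell membrane to dystroglycan and the basal lamina (chr7:27499324-27520214, plus strand, all 4 transcripts listed). Prx stood at 743, 483 and 441 CPM in the control and 619, 579 and 509 CPM in the degenerated libraries. The group means were close, at 556 ± 164 CPM (SD, n = 3) and 569 ± 55.7 CPM (SD, n = 3), and the control libraries spread more widely. The log2 fold change was 0.03 (SE 0.22, 95% interval -0.50 to 0.57). Prx shares 300 exonic bases with the antisense gene Gm15541, which had 365 counts in all 6 libraries together.

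Cnp encodes the phosphodiesterase CNPase of uncompacted myelin (chr11:100574904-100591729, plus strand, 3 of 4 transcripts listed). It stood at 132, 65.8 and 76.0 CPM in the control and at 86.5, 95.2 and 65.7 CPM in the degenerated libraries, with a log2 fold change of -0.15 (SE 0.30). Control replicate 1 was again the highest library. All 3 listed transcripts are annotated as noncoding and the coding one, Cnp-201, is not among them, so these counts stand for parts of the gene. The kit does not mark strand, and Cnp shares 154 exonic bases with Dnajc7 on the other strand, whose reads there cannot be told apart from those of Cnp.

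Mag encodes myelin-associated glycoprotein, the adhesion protein of the membrane that faces the axon (chr7:30899176-30914873, minus strand). Mag had 67.4, 38.8 and 15.6 CPM in the control and 90.2, 10.3 and 56.1 CPM in the degenerated libraries. The highest and the lowest of all 6 values were both in the degenerated group. The log2 fold change was 0.36 (SE 0.84), with a 95% interval from -1.70 to 2.42. Only 1 of 8 annotated transcripts, Mag-203, is listed, and 2413 of its 2434 bases also belong to Mag-201, which is not listed.

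Egr2, the zinc finger factor that starts and maintains myelination, varied strongly between libraries of both groups (chr10:67535475-67542188, plus strand, 4 of 7 transcripts listed). It stood at 20.4, 62.5 and 68.7 CPM in the control and at 19.4, 116 and 13.8 CPM in the degenerated libraries. Control replicate 1 and degenerated replicates 1 and 3 were low and the other libraries high, so that both groups held low and high libraries. The log2 fold change was -0.02 (SE 0.91, 95% interval -2.25 to 2.21). Transcript Egr2-201 made up 93.1% to 99.7% of the counts, and 2864 of its 2965 bases are shared with Egr2-202, which is not listed. How far the assignment of reads between these 2 transcripts moved with the level was not tested. The 3 libraries with the least Egr2 had the 3 highest levels of Mag, a pattern noticed after the values were seen.

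**Figure D1:**
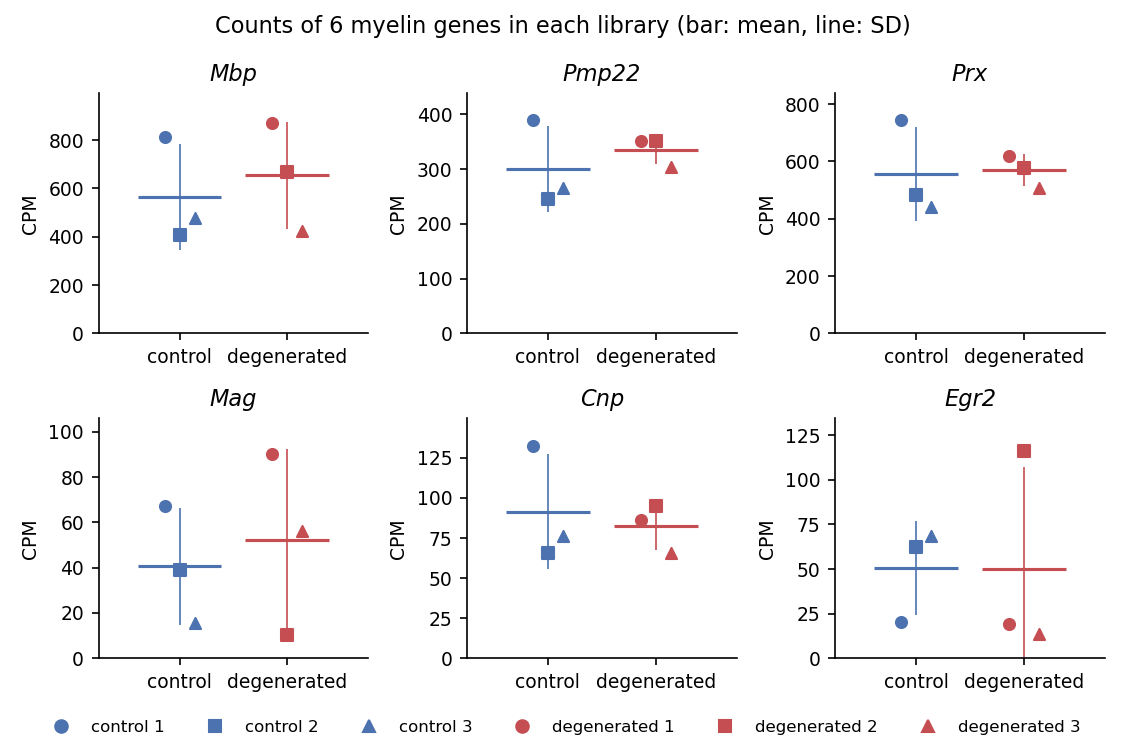
CPM (linear axis) of 6 myelin genes in the 3 control and 3 degenerated libraries, with the mean as a bar and the SD as a line, cut at 0 where it runs below (degenerated Egr2). Control replicate 1 is the highest control for every gene but Egr2, and the groups overlap in all 6 panels.

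Across the 6 genes, control replicate 1 was the highest control library for 5, degenerated replicate 1 the highest degenerated library for 4 and degenerated replicate 3 the lowest for 5. The summed level was 2167, 1301 and 1343 CPM in the control and 2036, 1818 and 1374 CPM in the degenerated libraries. Control replicate 1 and degenerated replicates 1 and 2 therefore stood above the other 3 libraries, whatever their group. Pearson's r of a gene's log2(CPM + 1) with the mean profile of the 6 genes over the 6 libraries, as a description in which each gene is itself 1 of the 6, was 0.92 for Mbp, 0.91 for Prx, 0.86 for Cnp and 0.79 for Pmp22. It was 0.34 for Mag and -0.14 for Egr2. Among the 5 other tested genes most like the mean profile, over the same 6 libraries, were 9530056K15Rik (r = 0.994), Emc3 (0.993), Pfkp (0.992) and Slc52a3 (0.982). They were picked as the highest r among 14118 genes, so such values follow from the selection and show no link to myelin. Levels were low for 9530056K15Rik (0.158 to 3.31 CPM) and Emc3 (0.552 to 1.65 CPM).

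Divided by transcript length, Mbp was the most abundant of the 6, with 685 ± 264 CPM per kb in control and 767 ± 286 in degenerated libraries (SD, n = 3). Pmp22 followed at 320 ± 76.8 and 356 ± 25.1, then Prx at 116 ± 35.4 and 115 ± 12, and Cnp at 52.0 ± 16 and 45.3 ± 9.11 CPM per kb. Egr2, at 18.5 ± 8.24 and 17.9 ± 19.1, and Mag, at 17.1 ± 11 and 21.4 ± 16.4 CPM per kb, did not differ beyond their spread.

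Single transcripts were compared next, since a gene's sum can hide a change of isoform. Of the 26 listed transcripts of the 6 genes, 19 passed the filter on low counts and 0 were called, against 1.79% of the 26065 transcripts tested. The log2 fold change was positive for 10 and negative for 9. The lowest unadjusted p was 0.242 (adjusted p = 0.826, edgeR's quasi-likelihood test), for Mbp-208, with 2 to 22 counts per library. This transcript of 1685 bases from the upstream golli start has a short coding sequence, of 55 residues. Among the 7 transcripts below the filter, the groups did not overlap for Mbp-216, which had 1, 3 and 4 counts in the control and 4, 4 and 13 counts in the degenerated libraries before scaling to library size, beside 16.4% of the tested transcripts.

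**Figure D2:**
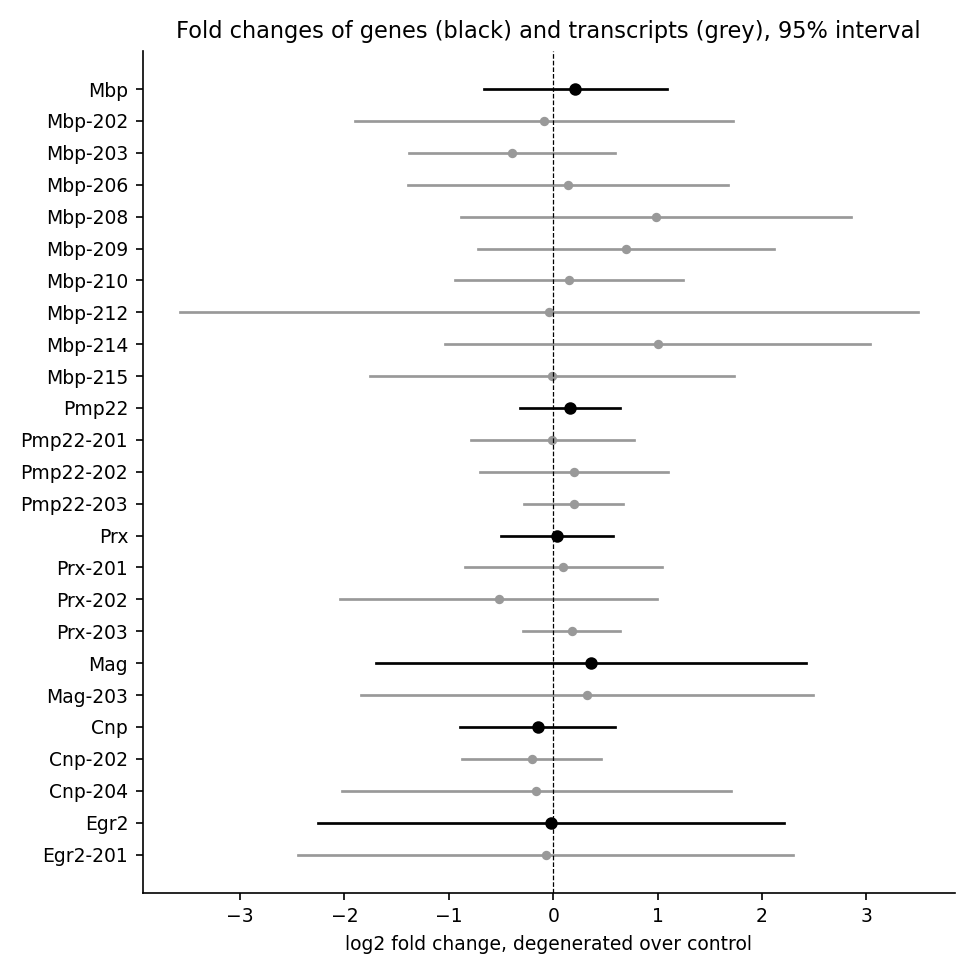
Log2 fold changes, degenerated over control, of the 6 genes (black) and their 19 tested transcripts (grey), with 95% intervals from edgeR's quasi-likelihood fit. Every interval includes 0, and those of Pmp22, Prx and Pmp22-203 are narrow while those of Mag, Egr2 and Mbp-212 reach beyond 2 in one or both directions.

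The share of a gene's counts held by each transcript varied widely between libraries of the same group. Of 17 member transcripts in 4 genes, 0 passed edgeR's transcript share test at an adjusted p below 0.05, against 0.241% of the 18255 transcripts tested, and their lowest unadjusted p was 0.364. Mbp-206, a coding-sequence transcript of 191 residues, held 42.3%, 21.7% and 57.4% of Mbp counts in the control and 50%, 21.7% and 51.8% in the degenerated libraries. Mbp-210, of 158 residues, held 43.8%, 55.0% and 31.1% in the control and 34.9%, 56.4% and 36.7% in the degenerated libraries. Replicate 2 of both groups was the library in which Mbp-210 exceeded Mbp-206 most. Together these 2 transcripts held 83.7% ± 6.28 of Mbp counts in control and 83.8% ± 5.31 in degenerated libraries (SD, n = 3). Each has 0 bases of its own, and 78.6% of Mbp-206 and 93.7% of Mbp-210 also belong to Mbp transcripts that are not listed. The part of read assignment in these shares was not tested.

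An exon of 78 bases, which adds 26 residues to Mbp and is known to be included more in young than in mature myelin, is part of 5 listed transcripts. These held 10.1%, 22.3% and 9.27% of Mbp counts in the control and 11.5%, 20.7% and 9.62% in the degenerated libraries. Shares are of listed transcripts only, and read assignment between them and the 5 Mbp transcripts that are not listed was not tested. The means were 13.9% ± 7.32 and 13.9% ± 5.93 (SD, n = 3), with replicate 2 high in both groups, and a two-sided exact permutation test gave p = 1 (adjusted p = 1 over the 7 shares tested in this way).

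Prx makes a long periaxin of 1391 residues (Prx-201 and Prx-202) and a short one of 148 residues (Prx-203), which ends early because an intron is kept. The short form held 35.3%, 38.0% and 40% of Prx counts in the control and 42.4%, 41.3% and 44.2% in the degenerated libraries. Every degenerated library lay above every control library, and the means were 37.8% ± 2.35 and 42.6% ± 1.44 (SD, n = 3). A two-sided exact permutation test gave p = 0.1, the smallest it can give (adjusted p = 0.35 over 7 shares), and edgeR's test of transcript shares, a model over all transcripts, gave p = 0.731. This was the only one of the 17 transcripts whose shares did not overlap, and shares did not overlap for 14.1% of all transcripts tested. Prx-203 shares 89.1% of its bases with the other Prx transcripts and has 592 of its own.

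Within the long form, Prx-202 held 30.6%, 31.6% and 21.9% of Prx counts in the control and 5.91%, 29.7% and 26.3% in the degenerated libraries, so that degenerated replicate 1 stood apart. Prx-201 held 51.6% in that library and between 28.2% and 38.1% in the others. Prx-204, whose annotated coding sequence is shorter (1252 residues), had 1, 2 and 1 counts in the control and 0, 60 and 77 counts in the degenerated libraries and did not pass the filter. Without degenerated replicate 1, the library with 0 counts, it passed the filter only through the degenerated libraries with 60 and 77 counts. It was then called higher (unadjusted p = 2.22e-04, adjusted p = 0.207, edgeR's quasi-likelihood test). Its share of Prx counts had an adjusted p of 0.00448 in edgeR's transcript share test. Both results follow from that selection of libraries and cannot show a difference between the groups. All bases of Prx-201 and Prx-202 occur in another Prx transcript, and the part of read assignment in these shifts was not tested.

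Pmp22 starts from alternative first exons, and each of its 3 listed transcripts codes for 160 residues. Pmp22-203, from the downstream start shown above, held 52.6%, 52.7% and 68.6% of Pmp22 counts in the control and 58.1%, 62.6% and 61.4% in the degenerated libraries. Pmp22-201 held nearly all of the rest, between 30.1% and 46.1%. The groups overlapped for both, and their log2 fold changes were 0.20 (SE 0.19) for Pmp22-203 and -0.008 (SE 0.32) for Pmp22-201.

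**Figure D3:**
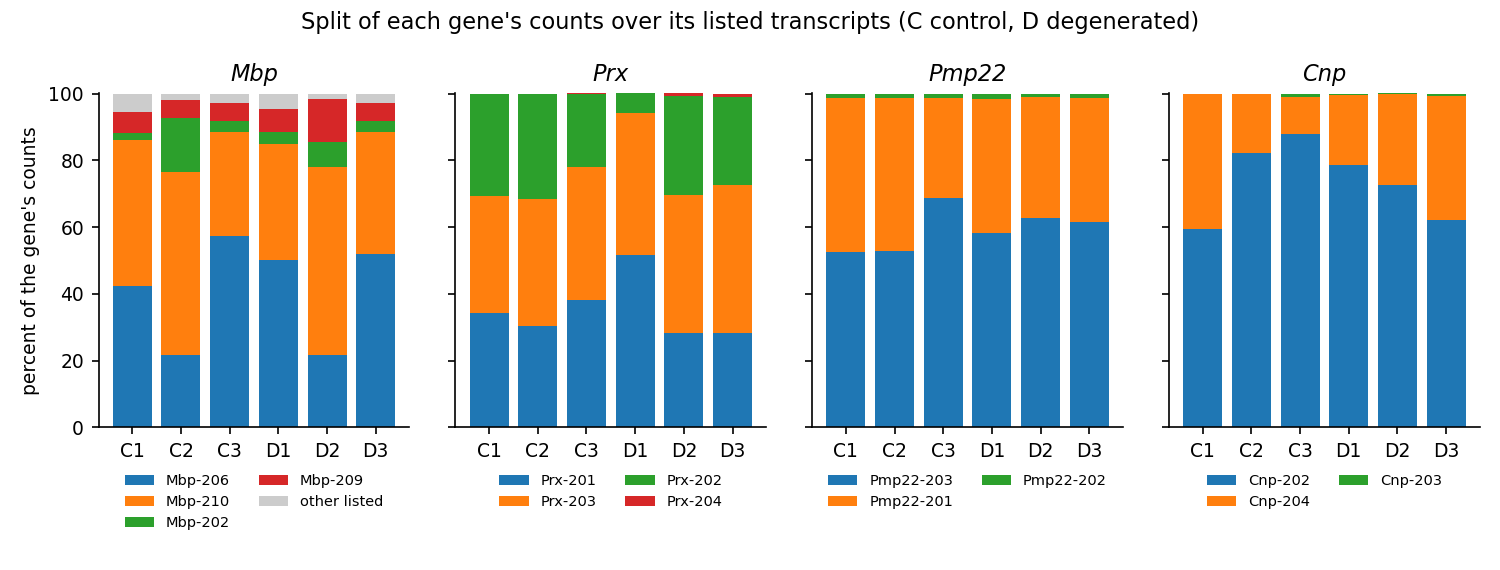
Percent of each gene's counts (linear axis) held by its listed transcripts in control (C1 to C3) and degenerated (D1 to D3) libraries. Mbp-210 exceeds Mbp-206 in C1, C2 and D2, by most in C2 and D2, Prx-202 is small in D1 (5.91%), and Cnp-204 ranges from 11.1% to 40.5%.

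Other genes of myelin came from lists made with earlier results of these data known. Of 17 tested genes of myelin structure, 1 was called higher (2.01% of all genes tested were) and 0 lower (0.715%), with a median log2 fold change of 0.19. Without overlap, 4 of them lay higher (10.3% of all genes tested did) and 1 lower (7.37%). The 1 was Gldn, which encodes gliomedin, the Schwann cell protein that gathers sodium channels at nodes of Ranvier. It stood at 256, 194 and 189 CPM in the control and 311, 330 and 295 CPM in the degenerated libraries, all 3 above the controls. Its log2 fold change was 0.55 (SE 0.15, unadjusted p = 0.00878, adjusted p = 0.362, edgeR's quasi-likelihood test). Gldn met the criteria without control replicate 1 but not without any other library, where the unadjusted p was 0.0186 to 0.0322 in the same test. It also missed them with edgeR's exact test, RLE or upper-quartile normalization, the replicate block or protein-coding transcripts only (unadjusted p = 0.0105 to 0.0165 in these edgeR fits).

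A further 6 genes of this list were chosen after their values were seen, and none of them met the criteria. Dag1, the gene of dystroglycan, had 412, 296 and 215 CPM in the control and 459, 493 and 473 CPM in the degenerated libraries, without overlap, with a log2 fold change of 0.63 (unadjusted p = 0.038, edgeR's quasi-likelihood test). Itga6, a laminin receptor subunit, had 126, 90.6 and 68.1 CPM in the control and 129, 151 and 154 CPM in the degenerated libraries (log2 fold change 0.61, unadjusted p = 0.0412, edgeR's quasi-likelihood test). Drp2, the partner of periaxin in the dystroglycan complex, overlapped between groups, with 183, 378 and 136 CPM in the control and 422, 265 and 147 CPM in the degenerated libraries. The others had negative log2 fold changes. Lamc1, a laminin chain of the basal lamina, had 2.45, 12.5 and 103 CPM in the control and 37.6, 1.90 and 1.82 CPM in the degenerated libraries (log2 fold change -1.51, SE 1.69), a spread set by single libraries of each group. Cldn19, a claudin of Schwann cell tight junctions, had 9.07, 7.43 and 10.1 CPM in the control and 4.99, 5.85 and 4.97 CPM in the degenerated libraries, without overlap (log2 fold change -0.75, unadjusted p = 0.0331, edgeR's quasi-likelihood test). Ncmap, a gene of noncompact myelin, had 11.2, 16.6 and 1.02 CPM in the control and 1.57, 1.06 and 0.631 CPM in the degenerated libraries, with overlap (log2 fold change -3.13, unadjusted p = 0.0212, edgeR's quasi-likelihood test).

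The median log2 fold change of 15 tested genes of myelin lipid synthesis was 0.01. Of them, 1 was called higher (2.01% of all genes tested were) and 0 lower (0.715%). The 1 was Srebf1, a transcription factor of fatty acid synthesis, with 49.2, 44.6 and 36.8 CPM in the control and 65.3, 64.9 and 71.0 CPM in the degenerated libraries (log2 fold change 0.62, unadjusted p = 0.00767, adjusted p = 0.359, edgeR's quasi-likelihood test). Without control replicate 1 it met the criteria (unadjusted p = 0.00854), and without any other library it did not (0.0201 to 0.0283, edgeR's quasi-likelihood test). It also missed them with edgeR's exact test (unadjusted p = 0.0343), the replicate block (0.026), protein-coding transcripts only (0.0137) or a covariate for the level of blood genes (0.0209), all fitted in edgeR. The list had no common direction, with 8 of the 15 log2 fold changes positive and 7 negative.

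The median log2 fold change of 21 tested regulators of Schwann cell myelination was 0.17. Without overlap, 3 of them lay higher (10.3% of all genes tested did) and 3 lower (7.37%). Of the 21, 1 was called higher (2.01% of all genes tested were) and 0 lower (0.715%). The 1 was Dlg1, which encodes a scaffold that limits myelin thickness, with 88.8, 69.6 and 63.7 CPM in the control and 160, 117 and 126 CPM in the degenerated libraries (log2 fold change 0.86, unadjusted p = 0.00366, adjusted p = 0.307, edgeR's quasi-likelihood test). The groups did not overlap, and Dlg1 missed the criteria without control replicate 2 (unadjusted p = 0.0155), control replicate 3 (0.0123) or degenerated replicate 1 (0.0149, edgeR's quasi-likelihood test), and with the blood covariate (0.0109). The corepressors Nab1 and Nab2, through which Egr2 acts, had log2 fold changes of 0.07 and -0.37, and Pou3f1 (Oct6), which turns on Egr2 in development, had 0.20. Nrg1, whose product on axons drives myelination, had 1.52, 1.13 and 41.0 CPM in the control and 1.09, 0.493 and 0.789 CPM in the degenerated libraries, without overlap, and its log2 fold change of -4.18 came with 1 high control library. None of the last 4 met the criteria, and they were chosen after their values were seen.

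Of 23 named genes of immature and repair Schwann cells, 17 had a listed transcript and 14 were tested. Jun, Ngfr, Shh, Sox2 and Gdnf had none, so the list covers the repair state only in part. Among the 14, 1 was called higher (2.01% of all genes tested were) and 0 lower (0.715%). Log2 fold changes were positive for 7 and negative for 7, with a median of 0.05. Without overlap, 2 lay higher (10.3% of all genes tested did) and 2 lower (7.37%). The 2 lower, Tnc and Cdh2, were named after their values were seen. The gene called higher was Gap43, a growth-associated protein of repair Schwann cells and of growing axons alike. It stood at 7.61, 4.74 and 5.74 CPM in the control and 32.6, 14.4 and 27.9 CPM in the degenerated libraries. Its log2 fold change of 2.05 (SE 0.39, unadjusted p = 0.00184, adjusted p = 0.273, edgeR's quasi-likelihood test) kept meeting the criteria without each library in turn, and all degenerated libraries lay above the controls.

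The levels of other cells were measured in the same libraries. Of 17 tested genes of SGNs, 0 were called higher (2.01% of all genes tested were) and 2 lower, Calb2 and Pvalb (0.715%). Without overlap, 8 of the 17 lay lower (7.37% of all genes tested did). The median log2 fold change of the 17 was -0.51. Their summed level was 13191 to 16884 CPM in the control and 7956 to 11815 CPM in the degenerated libraries. Snap25 (log2 fold change -0.62), Nefh (-0.73) and Calb2 (-1.07), the most abundant of them, each lay lower in every degenerated library. Calb2 missed the criteria without any 1 library but degenerated replicate 2 (unadjusted p = 0.0126 to 0.035), with a mean count of at least 10 (0.0102), with the replicate block (0.0273) and with the blood covariate (0.0238, edgeR's quasi-likelihood test throughout). Pvalb missed them without any 1 control library (0.0133 to 0.018) and with the replicate block (0.0143, same test). The difference between the neuronal and the myelin genes was not tested.

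Of 7 tested genes of satellite glia and nonmyelinating Schwann cells, 1 was called higher (2.01% of all genes tested were) and 0 lower (0.715%). The called gene was the potassium channel gene Kcnj10 (log2 fold change 0.83), while Glul (0.07) and Apoe (0.34) were not called. Of 9 tested genes of oligodendrocytes 0 were called in either direction (2.73% of all genes tested were), with a median of 0.46. Their summed level was 416, 268 and 262 CPM in the control and 649, 369 and 177 CPM in the degenerated libraries, highest in degenerated replicate 1, in which Mbp and Mag were also highest. Ermn (48.5 to 190 CPM), Mobp (20.4 to 79.8 CPM) and Klk6 (25.2 to 119 CPM) were the most abundant of them, and Opalin, named after its values were seen, had 0.474 to 4.31 CPM. The part of central myelin in the counts of Mbp, Mag and Cnp was not tested.

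Of 8 tested macrophage genes, 2 were called higher (2.01% of all genes tested were) and 0 lower (0.715%). Those called were C1qb (log2 fold change 0.69) and C1qc (0.63), while Lyz2, the most abundant, had -0.009. The list had no common direction, with 4 log2 fold changes positive and 4 negative and a median of 0.09. C1qb missed the criteria without control replicate 2 or 3 or degenerated replicate 1 or 3 (unadjusted p = 0.012 to 0.014), and C1qc without any 1 library but degenerated replicate 2 (0.0139 to 0.0221) and with the blood covariate (0.0151, edgeR's quasi-likelihood test throughout). The summed level of the macrophage list overlapped, at 922 to 2748 CPM in the control and 1674 to 3087 CPM in the degenerated libraries. Of the remaining marker lists, 2 of 9 hair cell genes and 1 of 6 genes of fibroblasts and bone were called. So were 1 of 4 muscle genes (Pvalb again) and 0 of 7 melanocyte genes. All of the calls were lower, as were 0.715% of all genes tested. Control replicate 3 was rich in muscle RNA, with Ckm, named after its values were seen, at 92.8 CPM. In the other libraries Ckm had 0.211 to 0.752 CPM.

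Genes of blood and bone marrow, led by Hbb-bs, Hba-a1 and S100a9, spread more widely over the libraries than the myelin genes. Of 9 tested, 0 were called in either direction (2.73% of all genes tested were), all 9 log2 fold changes were negative and the median was -1.43. Their summed level was 4767, 43758 and 22140 CPM in the control and 5817, 4340 and 16522 CPM in the degenerated libraries. The 3 libraries with the lowest blood level were the 3 with the highest summed myelin level, in the control and the degenerated group alike. Between 406 and 476 CPM of Mbp were found in the 3 libraries rich in blood genes and between 668 and 869 CPM in the 3 others.

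A fit with the blood level as a covariate, chosen after the data were seen, gave negative log2 fold changes of -0.17 for Mbp, -0.16 for Prx, -0.03 for Pmp22, -0.46 for Cnp and -0.09 for Egr2, and a positive one of 0.25 for Mag. None of the 6 genes met the criteria in it, and the lowest unadjusted p was 0.0114, for Cnp (edgeR's quasi-likelihood test, adjusted p = 0.383). The direction of Mbp, Prx and Pmp22 thus differed with and without the covariate, and the cause of the relation between blood and myelin levels was not tested.

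**Figure D4:**
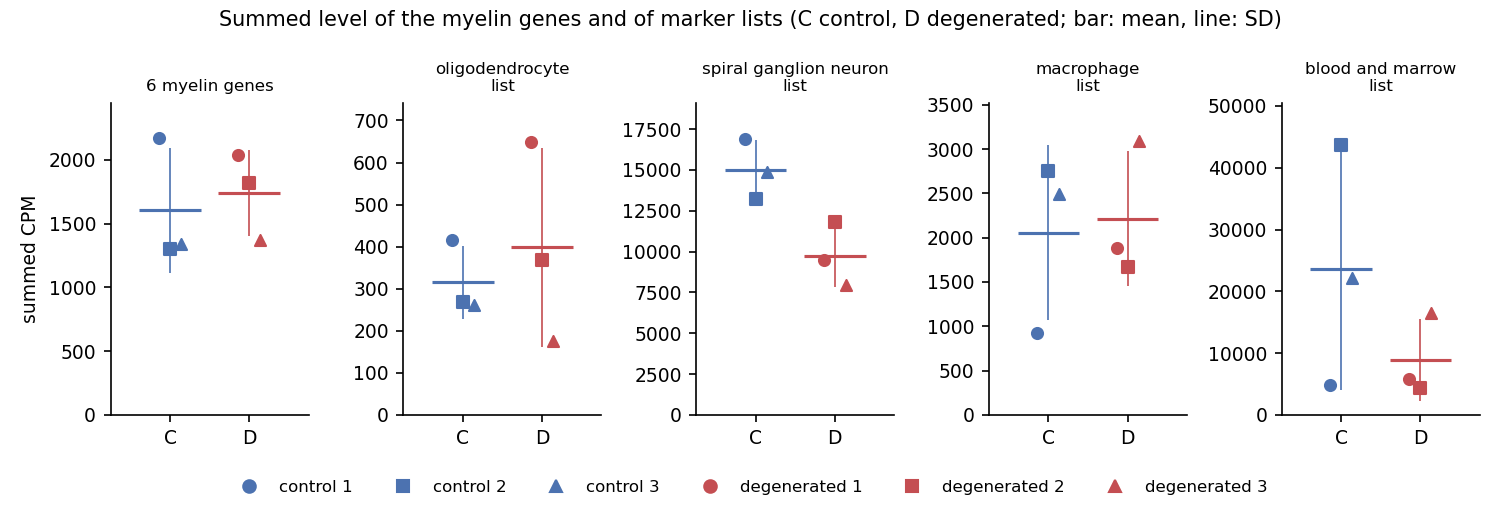
Summed CPM (linear axes from 0) of the 6 myelin genes and of 4 marker lists in each library, with the mean as a bar and the SD as a line. Control replicate 1 and degenerated replicates 1 and 2 are the highest 3 libraries for the myelin genes and the lowest 3 for the blood list, and of the 5 panels only that of the neuron list shows groups that do not overlap.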

How the data were processed

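RNA of 6 modiolus libraries, 3 per group as the labels give them, was analysed. The authors deposited 1 table of raw counts per Ensembl transcript, without normalization. The study's methods name Hisat2 2.1.0 and StringTie 1.3.3b, whereas the submitters' processing notes name Bowtie 0.12.2 and the builds mm8 and mm10. For the annotation and the counting step, no entry was found (not given in the sources used here). Altogether the table lists 65535 transcripts. Of these, 65272 matched GENCODE M21 (GRCm38) and their counts were added up per gene, so a gene's value describes its listed transcripts only. The kit does not mark strand.

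Genes and transcripts that passed filterByExpr entered edgeR 4.0.16 under R 4.3.3 (TMM normalization, robust quasi-likelihood test, all 6 libraries, no covariates, Benjamini-Hochberg adjustment over all rows). Transcript shares were tested with diffSpliceDGE. SEs are the fold change over the square root of F. Scripts were tested on simulated data. Alternatives used DESeq2 1.42.0 and limma 3.58.1, among others. The members, the gene lists and the tests were chosen with earlier results of these data known. Named were all members and their tested transcripts, genes of the 4 myelin and Schwann cell lists that met the criteria, the 3 most abundant genes of marker lists where used, and the 5 genes most like the members. Results for some of these genes are not reported here. Promoters are from RefSeq, where 5 of the 8 genes had a window. Listed transcripts totalled 12480876 to 15549319 counts per library, and the counting error of single genes was not compared with the spread between libraries.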

Additional observations from a re-analysis of the deposited data

How the results depend on the processing

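With DESeq2, edgeR's exact test, limma-voom, RLE or upper-quartile normalization, no filter, a mean count of at least 10 or the replicate block, 0 of the 6 myelin genes were called, and also with each library left out or with the blood covariate. With protein-coding transcripts only, 0 of 5 were, since Cnp has none listed. Their log2 fold changes turned sign with the covariate for Mbp (-0.17), Prx (-0.16) and Pmp22 (-0.0283). With each library left out in turn they ran from -0.0625 to 0.559 for Mbp, -0.12 to 0.29 for Prx, -0.30 to 0.93 for Mag, -1.62 to 0.42 for Egr2 and -0.34 to 0.21 for Cnp. Pmp22 ran from 0.0325 to 0.385 in the same fits. Its lowest unadjusted p among them was 0.0182, without control replicate 1 (adjusted p = 0.338, edgeR's quasi-likelihood test). Pmp22-201 turned with limma-voom (0.0799), upper-quartile normalization (0.0425), the replicate block (0.0692) and left-out libraries (-0.25 to 0.37), and 10 of the 19 member transcripts changed sign in at least 1 alternative. The calls over all genes rose from 385 to 785 with DESeq2 and fell to 218 with the replicate block, of which 164 were shared with the 385. Genes at an adjusted p of 0.05 numbered 383 with DESeq2, 115 with the exact test and 0 to 3 with a library left out. Transcripts called rose from 466 to 1210 with DESeq2 and fell to 221 with the replicate block. Transcript shares at an adjusted p of 0.05 numbered 44, 18 with the replicate block and 63 to 76 with a library left out. Member transcripts called, and member shares at that p, numbered 0 to 1 with a library left out, the 1 being Prx-204 without degenerated replicate 1. That fit admitted Prx-204 only through the degenerated libraries in which it was high. Deviations of same-numbered libraries from their group means had r = 0.16, -0.09 and 0.07 for pairs 1 to 3. The largest r, 0.235, was that of control replicate 2 with degenerated replicate 3. With 3 libraries a group, these values cannot settle whether the numbers pair the libraries. The 3 libraries a group, the unlisted transcripts and the spread of Mag and Egr2 limit what could be detected. The cause of these shifts was not tested.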
